A study of Mus musculus with 2 samples.

Results

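The genes described here encode proteins named for leucine-rich, ankyrin or armadillo repeats. They were chosen by symbol from a table of genes that precipitated with FMRP from mouse testis, by the symbol starts Lrrc with a digit after it (1 such symbol is left out by the rule and is not reported here), Lrriq, Lrrk, Lrguk, Ankrd, Ankhd1, Ankib1, Ankef1, Ankfy1, Ankle, Ankmy, Armc and Armcx. The choice gave 56 of the 4745 genes in the table, namely 27 leucine-rich, 27 ankyrin and 2 armadillo repeat genes. *Lrrc27* stood in 2 rows with the same values, on chromosome 7 and on a contig outside the assembled chromosomes, and was counted once. The input group is 1 library of lysate RNA from testis of adult wild-type mice, kept before precipitation, and the FMRP RIP group is 1 library of the RNA that was recovered from such lysate with an anti-FMRP antibody. How many mice were used is not given in the sources used here, and no IgG library was analysed here. With 1 library in each group there is no replicate check and no test between the groups.

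Leucine-rich, ankyrin and armadillo repeats are short motifs that stack into a solenoid, a curved scaffold whose surface binds other proteins. The repeats do not define a function by themselves. They occur in channel subunits, phosphatase subunits, chromatin regulators, ubiquitin ligases and parts of the axoneme, the microtubule core of the sperm flagellum. FMRP is an RNA-binding protein that associates with mRNAs and polyribosomes and regulates translation, and the study asked which testicular transcripts it binds together with the kinesin KIF6.

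Every gene in the table was called higher after precipitation by the authors, so the direction of every gene is fixed by the selection. Values are CPM, the reads of a gene scaled to a common library total, and the libraries held 30849871 reads (input) and 36506932 reads (FMRP RIP). The share of reads on listed rows was 14.2% for input and 55.2% for FMRP RIP. CPM is not divided by transcript length, so levels are set side by side between libraries and not between genes. Of 25 markers of testis cell types, blood and macrophages, 3 were listed: *Sycp1* and *Sycp2*, genes of the synaptonemal complex of spermatocytes, and *Akap4*, a gene of the fibrous sheath of the sperm tail. These were 2 of 6 spermatocyte markers and 1 of 7 spermatid markers, beside 21.3% of all protein-coding genes listed. No Sertoli, Leydig, macrophage or blood marker was listed. A gene had to be higher after precipitation to be listed, and the level of unlisted markers was not analysed here. The labelled tissue could therefore not be checked by these markers.

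Over the 56 genes, the median log2 ratio of FMRP RIP to input, with a pseudocount of 1 CPM added to both, was 1.33 (quartiles 1.05 and 2.02). The median of all listed genes was 1.35 (quartiles 0.92 and 2.0), so the repeat genes lay at the centre of the table. A log2 ratio above 1 was reached by 44 of the 56 (78.6%), beside 70.1% of all listed genes, and a log2 ratio above 2 by 15 (26.8%), beside 25.0%. A fold of 1.5 was the limit for a gene to enter the table, so the count at that fold, all 56 with the pseudocount beside 97.3% of the listed genes, is largely set by the selection. Nothing particular to the repeat genes is read from these shares. Just above a log2 ratio of 1 lay *Armc3* (1.02), *Lrriq3* (1.02) and *Ankrd13b* (1.06). Just below it lay *Lrrc45* (0.97), *Ankrd28* (0.94) and *Lrrc59* (0.93).

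**Figure D1:**
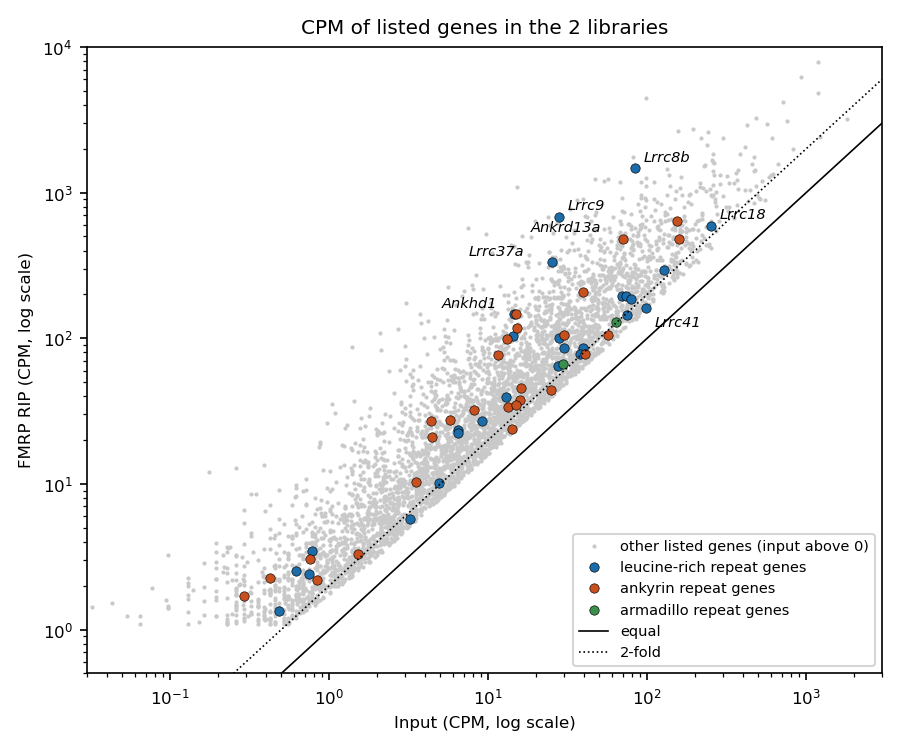
Each point is a gene in the table with input above 0, with its CPM in the input on the horizontal axis and in the FMRP RIP on the vertical axis, both on log scales; the solid line marks equal levels and the dotted line a 2-fold difference. The 56 repeat genes (coloured) spread through the cloud of other listed genes (grey), with *Lrrc9*, *Lrrc8b* and *Lrrc37a* near its upper edge.

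The leucine-rich and ankyrin families had the same count above 1 and differed in their upper range. Among the leucine-rich repeat genes the median log2 ratio was 1.33, with quartiles of 1.06 and 1.68, and 21 of 27 were above 1. Among the ankyrin repeat genes the median was 1.44, with quartiles of 1.12 and 2.22, and likewise 21 of 27 were above 1. A log2 ratio above 2 was found for 10 of the 27 ankyrin repeat genes (37.0%) and for 5 of the 27 leucine-rich repeat genes (18.5%). Over all listed genes this share was 25.0%. The highest value nevertheless belonged to the leucine-rich family, 4.56 against 3.20 for the highest ankyrin repeat gene. Just above 2 lay *Ankrd52* (2.01), *Ankef1* (2.04) and *Ankrd12* (2.07). With a pseudocount of 5 CPM, *Ankrd50*, *Ankrd12* and *Ankrd52* fell below 2. Without a pseudocount, *Ankrd6*, *Ankrd26*, *Ankrd13b*, *Lrrc4* and *Lrrc66* rose above it. The armadillo genes, *Armc2* and *Armc3*, had 1.14 and 1.02. Genes are not replicates, and the difference between families was not tested. Over the 40 genes with whole reads in both libraries the order of the medians turned, with 1.33 for ankyrin and 1.48 for leucine-rich repeat genes.

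**Figure D2:**
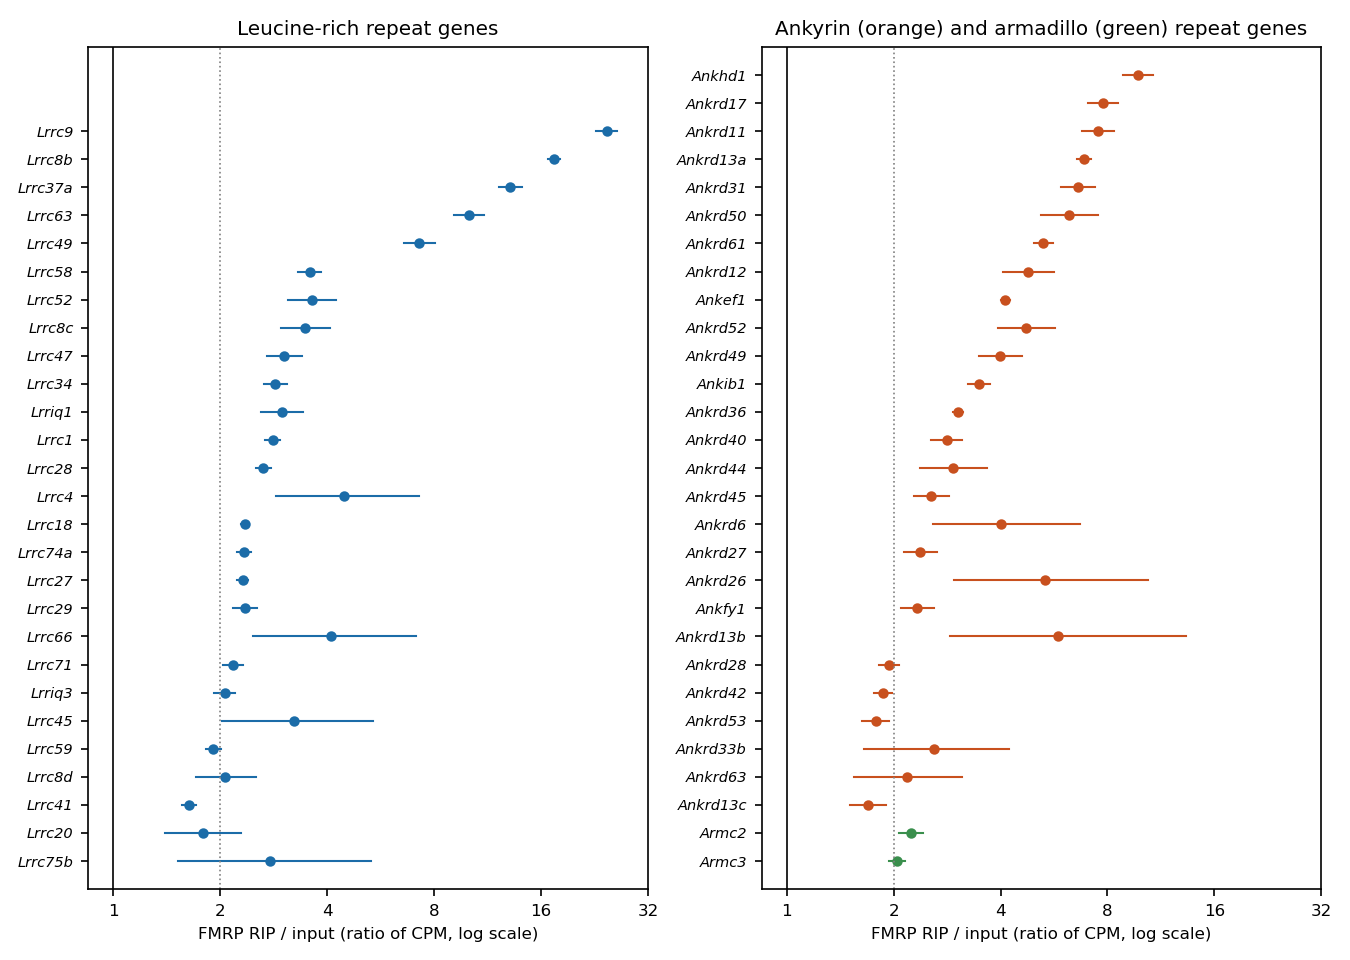
Points give the ratio of CPM in the FMRP RIP to CPM in the input for each of the 56 genes on a log scale, and lines give the exact 95% interval of counting error; genes are ordered within each family by their log2 ratio with the pseudocount, and the dotted line marks a ratio of 2. In the leucine-rich family the top 5 genes stand at ratios from 7.25 to 24.5 and all others at 4.47 or less, whereas the ankyrin repeat genes run from 9.73 down to 1.69 without such a gap; the wide lines belong to genes with few input reads.

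In the leucine-rich family 5 genes stood apart from the rest, with log2 ratios from 2.78 to 4.56 beside 1.80 for the next. *Lrrc9* (ENSMUSG00000021090, chromosome 12 from 72441866 to 72530750 in GRCm38, the build of all coordinates here) went from 28.0 CPM (input) to 685 CPM (FMRP RIP), a ratio of 24.5 (95% interval 22.9 to 26.2). Ordered by log2 ratio it was gene 29 of the 4745 listed. *Lrrc8b* (ENSMUSG00000070639) went from 84.3 CPM (input) to 1465 CPM (FMRP RIP), a ratio of 17.4 (interval 16.7 to 18.1), at rank 57. Its interval and that of *Lrrc9* do not overlap. *Lrrc37a* (ENSMUSG00000078632, chromosome 11 from 103450709 to 103504597) had 25.4 CPM and 332 CPM, a ratio of 13.1 (interval 12.2 to 14.1), at rank 114. Its reads were not whole numbers in either library, and the part of shared reads in its ratio was not tested. *Lrrc63* (chromosome 14 from 75084303 to 75130881) had 14.5 CPM and 146 CPM, a ratio of 10.04 (interval 9.11 to 11.1). *Lrrc49*, a subunit of the tubulin polyglutamylase complex that adds glutamate chains to axonemal microtubules, had 14.3 CPM and 103.9 CPM, a ratio of 7.25 (interval 6.57 to 8.02).

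Below them the family was continuous. *Lrrc58* (28.0 and 99.8 CPM) and *Lrrc52* (6.48 and 23.4 CPM) had ratios of 3.57 and 3.62, with overlapping intervals. LRRC52 is an auxiliary subunit of the sperm potassium channel SLO3. *Lrrc18*, the leucine-rich repeat gene with the most input reads (7821), went from 254 CPM (input) to 595 CPM (FMRP RIP), a ratio of 2.35 (interval 2.29 to 2.41). *Lrrc1*, a relative of the polarity protein Scribble, had a ratio of 2.81 (interval 2.68 to 2.95), and *Lrrc29*, an F-box protein gene, 2.35 (interval 2.17 to 2.54). The ratios of *Lrrc74a*, *Lrrc27*, *Lrrc29* and *Lrrc18* lay between 2.31 and 2.35, and these 4 genes cannot be ordered within counting error.

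The lowest log2 ratios of the leucine-rich family among genes with at least 100 reads were those of *Lrrc20* (0.68), *Lrrc41* (0.70), *Lrrc8d* (0.91), *Lrrc59* (0.93) and *Lrrc45* (0.97). *Lrrc41*, a substrate adaptor of a cullin ubiquitin ligase, went from 98.4 CPM (input) to 160.3 CPM (FMRP RIP), a ratio of 1.63 (interval 1.56 to 1.70). *Lrrc59*, which encodes a ribosome-binding protein of the endoplasmic reticulum, had 75.2 and 143.8 CPM, a ratio of 1.91 (interval 1.82 to 2.01). Both are well covered, with 3034 and 2319 input reads. *Lrrc45*, a component of the linker between centrioles, had 23 input reads and 88 FMRP RIP reads, and its ratio of 3.23 has an interval from 2.02 to 5.36, so its place near the bottom rests on the pseudocount.

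The ankyrin repeat genes with the highest log2 ratios were *Ankhd1* (3.20), *Ankrd17* (2.88), *Ankrd11* (2.82), *Ankrd13a* (2.76) and *Ankrd31* (2.62). *Ankhd1* and *Ankrd17* are close relatives that carry long ankyrin arrays and a KH domain, itself an RNA-binding fold. *Ankhd1* (ENSMUSG00000024483) went from 15.0 CPM (input) to 146 CPM (FMRP RIP), a ratio of 9.73 (interval 8.84 to 10.7). *Ankrd17* (ENSMUSG00000055204, chromosome 5 from 90227166 to 90366577) had 15.1 and 117 CPM, a ratio of 7.76 (interval 7.06 to 8.57). From nearly equal input the ratio of *Ankhd1* was 1.25 times that of *Ankrd17*, with intervals that do not overlap. Both had fractions of reads in both libraries.

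Chromatin regulators formed another pair. *Ankrd11*, whose product recruits histone deacetylases to nuclear receptor coactivators, went from 13.1 CPM (input) to 98.2 CPM (FMRP RIP), a ratio of 7.52 (interval 6.78 to 8.35). Its relative *Ankrd12* had 5.71 and 27.3 CPM, a ratio of 4.77 (interval 4.07 to 5.64). The intervals do not overlap. *Ankrd31* (chromosome 13 from 96748272 to 96910039), which encodes a partner of REC114 needed for meiotic DNA breaks in the pseudoautosomal region, had 11.6 and 76.5 CPM, a ratio of 6.60 (interval 5.91 to 7.38). *Ankle1* and *Ankle2*, the nuclear genes grouped with it, were not listed.

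At the other end of the family, the lowest log2 ratios among ankyrin repeat genes with at least 100 reads were those of *Ankrd13c* (0.72), *Ankrd63* (0.77), *Ankrd33b* (0.79), *Ankrd53* (0.81) and *Ankrd42* (0.89). *Ankrd42* went from 56.7 to 106 CPM, a ratio of 1.87 (interval 1.76 to 1.98), and *Ankrd53*, whose product takes part in spindle function, from 24.7 to 43.9 CPM, a ratio of 1.78 (interval 1.63 to 1.94). These well covered genes were less than 2-fold higher after precipitation. *Ankrd63* (47 and 121 reads) and *Ankrd33b* (26 and 80 reads) had ratios of 2.18 (interval 1.54 to 3.12) and 2.60 (interval 1.65 to 4.22), so their low places rest in part on the pseudocount.

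Apart from the low genes just named, the ankyrin repeat genes without a role group had log2 ratios above 1, the highest being *Ankrd61* (2.37) and *Ankrd49* (1.87). *Ankrd36*, with the most input reads of the family (4881), went from 158 to 481 CPM, a ratio of 3.04 (interval 2.94 to 3.14). *Ankrd40* and *Ankrd45* had ratios of 2.82 (interval 2.55 to 3.12) and 2.55 (interval 2.28 to 2.86), which cannot be told apart within counting error. *Ankrd6*, also called diversin, a regulator of planar cell polarity and Wnt signalling, rested on 23 input reads and had a ratio of 4.01 with an interval from 2.59 to 6.70. Among leucine-rich repeat genes without a role group, *Lrrc47* had a ratio of 3.02 (interval 2.71 to 3.39), *Lrrc28* 2.64 (interval 2.52 to 2.77) and *Lrrc71* 2.17 (interval 2.03 to 2.32). *Lrrc66* and *Lrrc75b* had 19 and 15 input reads, and their intervals, 2.48 to 7.10 and 1.52 to 5.30, span most of the range of the family below its top genes.

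Genes for subunits of the same type of channel, and next of the same phosphatase, differed in ratio by more than counting error in these single libraries. LRRC8 proteins assemble into the volume-regulated anion channel, in which LRRC8A is obligatory and the others set what passes through. *Lrrc8b*, *Lrrc8c* and *Lrrc8d* were listed and lie in a row on chromosome 5 on the same strand (105415775 to 105490074, 105519388 to 105613018 and 105699969 to 105832436), separated by 29.3 kb and 87.0 kb, with no listed gene between them. *Lrrc8c* went from 6.45 CPM (input) to 22.3 CPM (FMRP RIP), a ratio of 3.46 (interval 2.96 to 4.06). *Lrrc8d* had 4.89 and 10.1 CPM, a ratio of 2.06 (interval 1.70 to 2.51). Reads of *Lrrc8d* were not whole numbers in either library, and its span overlaps *Gm42166*. The part of shared reads in its ratio was not tested. The ratio of *Lrrc8b* was 5.02 times that of *Lrrc8c* and 8.42 times that of *Lrrc8d*, and the intervals of all 3 are separate. *Lrrc8a* and *Lrrc8e* were not listed.

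The regulatory ankyrin subunits of protein phosphatase 6, *Ankrd28*, *Ankrd44* and *Ankrd52*, were all listed. The shares listed were 49.1% of ankyrin repeat genes and 21.3% of all protein-coding genes, and nothing is read from the count of this small set. *Ankrd52* went from 4.44 CPM (input) to 20.9 CPM (FMRP RIP), a ratio of 4.71 (interval 3.92 to 5.69). *Ankrd44* had 3.53 and 10.4 CPM, a ratio of 2.94 (interval 2.37 to 3.67). *Ankrd28*, with 40.5 and 78.4 CPM, had the lowest ratio of the set, 1.94 (interval 1.81 to 2.07). All 3 intervals are separate, those of *Ankrd52* and *Ankrd44* by the least.

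In the ANKRD13 set, ANKRD13A binds ubiquitinated receptors at the plasma membrane and ANKRD13C assists receptor maturation in the endoplasmic reticulum. *Ankrd13a* (chromosome 5 from 114774677 to 114806200) went from 70.4 CPM (input) to 483 CPM (FMRP RIP), a ratio of 6.86 (interval 6.56 to 7.17). *Ankrd13c* had 14.2 and 24.0 CPM, a ratio of 1.69 (interval 1.51 to 1.90), the lowest among the 27 ankyrin repeat genes. *Ankrd13b* rested on 9 input reads and 62 FMRP RIP reads, and its ratio of 5.82 has an interval from 2.88 to 13.3 that includes the ratio of *Ankrd13a*. *Ankrd13d* was not listed. How often the intervals of any pair of listed genes lie apart was not computed. Nothing particular to the sets of related genes is therefore read from their separate intervals. The quotient of the ratios of a pair, from 1.18 to 8.42 within the KH domain, chromatin, LRRC8, phosphatase 6 and ANKRD13 sets, does not depend on how the libraries are scaled.

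**Figure D3:**
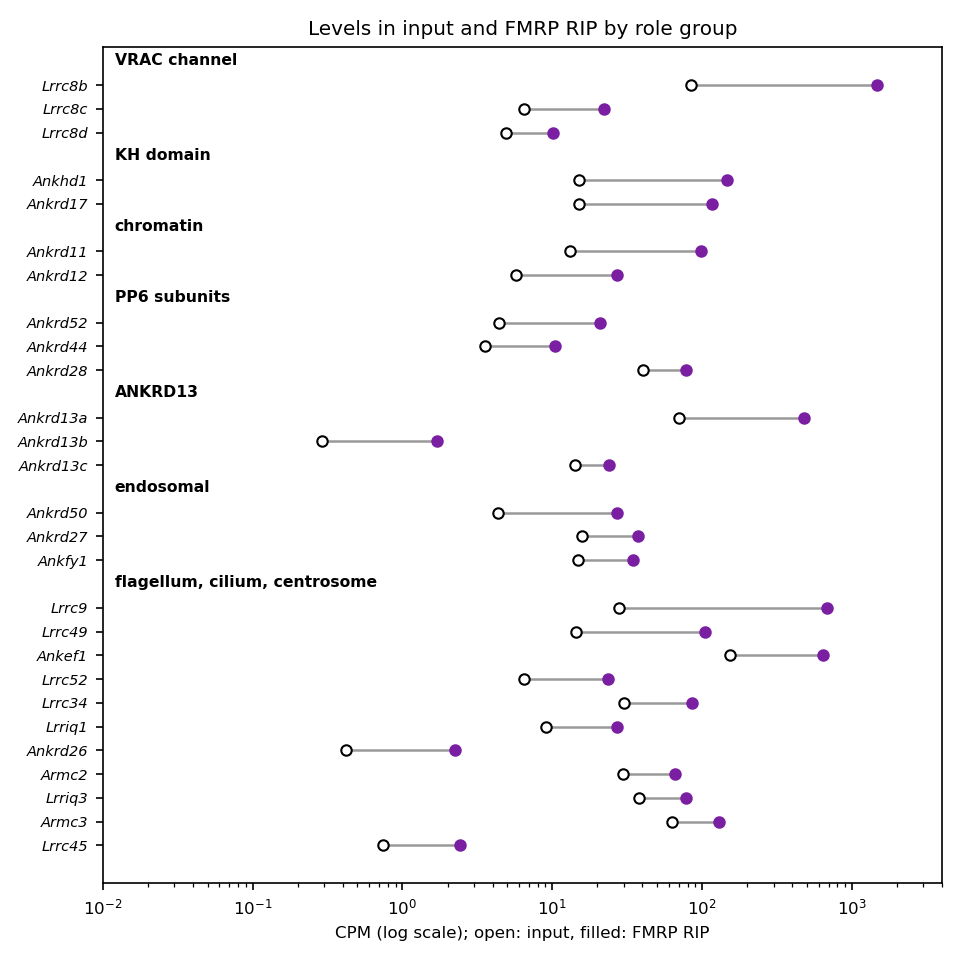
Each line joins the CPM of 1 gene in the input (open circle) to its CPM in the FMRP RIP (filled circle) on a log scale, in groups by known role; the length of the line is the ratio. Within the VRAC (volume-regulated anion channel) group the line of *Lrrc8b* is the longest, from 84.3 to 1465 CPM, and *Lrrc8c* and *Lrrc8d* have short ones; *Ankrd50* stands apart in the endosomal group.

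All 3 endosomal ankyrin genes of the list were in the table, beside 49.1% of ankyrin repeat genes and 21.3% of all protein-coding genes. Nothing particular to so small a set is read from this count. *Ankrd50*, which acts with the retromer in endosomal recycling, went from 4.34 CPM (input) to 27.1 CPM (FMRP RIP), a ratio of 6.24 (interval 5.21 to 7.53). *Ankrd27*, a guanine nucleotide exchange factor for the small GTPase RAB21, had 15.8 and 37.5 CPM, a ratio of 2.38 (interval 2.14 to 2.64). *Ankfy1*, a RAB5 effector with a FYVE domain, had 14.9 and 34.7 CPM, a ratio of 2.33 (interval 2.09 to 2.60). The intervals of *Ankrd27* and *Ankfy1* overlap and that of *Ankrd50* is above both. Among the ubiquitin ligase genes of the list, *Ankib1*, which encodes a ligase with the paired RING fingers of the RBR class, had 30.1 and 104.7 CPM, a ratio of 3.47 (interval 3.23 to 3.73). That interval lies above the one of *Lrrc41*.

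Of 19 genes grouped for the sperm flagellum, cilium, manchette or centrosome, 11 were listed and 10 of them had a log2 ratio above 1, with a median of 1.48 and a range from 0.97 to 4.56. The shares over all genes were 21.3% of protein-coding genes listed and 70.1% of listed genes above 1, with a median of 1.35, and nothing particular to the group is read from its counts. Beside *Lrrc9*, *Lrrc49*, *Lrrc52* and *Lrrc45*, described above, *Ankef1*, a gene for a protein with ankyrin repeats and an EF-hand, went from 155 CPM (input) to 637 CPM (FMRP RIP), a ratio of 4.12 (interval 3.998 to 4.26). *Lrrc34* had 29.95 and 85.6 CPM, a ratio of 2.86 (interval 2.66 to 3.08). *Lrriq1*, whose product carries a calmodulin-binding IQ motif, had 9.11 and 27.2 CPM, a ratio of 2.98 (interval 2.61 to 3.42), and *Lrriq3* had 37.7 and 77.6 CPM, a ratio of 2.06 (interval 1.92 to 2.21). *Ankrd26*, a protein of the centriole's distal appendages, had 13 input reads and 82 FMRP RIP reads, which leaves its ratio of 5.33 with an interval from 2.95 to 10.4.

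The armadillo genes belong to the same group. *Armc2*, needed for the axoneme of motile cilia and sperm, went from 29.5 CPM (input) to 66.2 CPM (FMRP RIP), a ratio of 2.24 (interval 2.07 to 2.42). *Armc3* had 63.5 and 129.8 CPM, a ratio of 2.04 (interval 1.94 to 2.16). Their intervals overlap each other and that of *Lrriq3*. Among the genes of this group not listed were *Lrrc23*, *Lrrc46*, *Lrrc56*, *Lrguk*, *Ankmy2*, *Armc4*, *Armc9* and *Armc12*.

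Other role groups had 1 listed gene or none, beside 21.3% of all protein-coding genes listed. These groups are small, and nothing particular to them is read from these counts. Of the neuronal adhesion and synaptic genes, *Lrrc4*, a ligand of netrin-G at synapses, was listed, at 0.778 CPM (input) and 3.48 CPM (FMRP RIP) (24 and 127 reads, ratio 4.47, interval 2.87 to 7.24). The span of *Lrrc4* overlaps another protein-coding gene, *Snd1*, and whether reads were counted by strand is not known. *Lrrc4b*, *Lrrc4c* and *Lrrc7* were not listed. Neither ROCO kinase (*Lrrk1*, *Lrrk2*), none of 8 mitochondrial armadillo genes (*Armc1*, *Armc10* and *Armcx1* to *Armcx6*) and none of 3 muscle ankyrin repeat genes (*Ankrd1*, *Ankrd2* and *Ankrd23*) was listed. Whether these genes were expressed in the libraries was not analysed here.

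How often a family was listed could be set against the RefSeq annotation of GRCm38.p6, in which all 56 symbols were found. Of 144 protein-coding genes there that meet the symbol rule, 56 were listed (38.9%), beside 21.3% of all protein-coding genes, expressed in testis or not. The share was 49.1% for ankyrin (27 of 55), 37.5% for leucine-rich (27 of 72) and 11.8% for armadillo repeat genes (2 of 17). These shares hold for the symbols of the rule and not for the repeats. Of chosen genes with the same repeats but other names, 27 of 58 ankyrin, 15 of 32 leucine-rich and 15 of 27 armadillo repeat genes were listed. Listed repeat genes had longer spans, the distance from gene start to gene end, with a median of 53.0 kb against 14.8 kb for those not listed. Over all protein-coding genes these medians were 48.6 kb and 12.5 kb. By span class, 17.5% of repeat genes under 10 kb were listed (7 of 40), 31.2% from 10 to under 30 kb (15 of 48), 53.3% from 30 to under 100 kb (16 of 30) and 69.2% at 100 kb or more (18 of 26). The shares of all protein-coding genes in these classes were 4.91%, 18.1%, 37.7% and 49.2%. Neither transcript length nor testis expression of the unlisted genes was matched, and these shares were not tested.

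**Figure D4:**
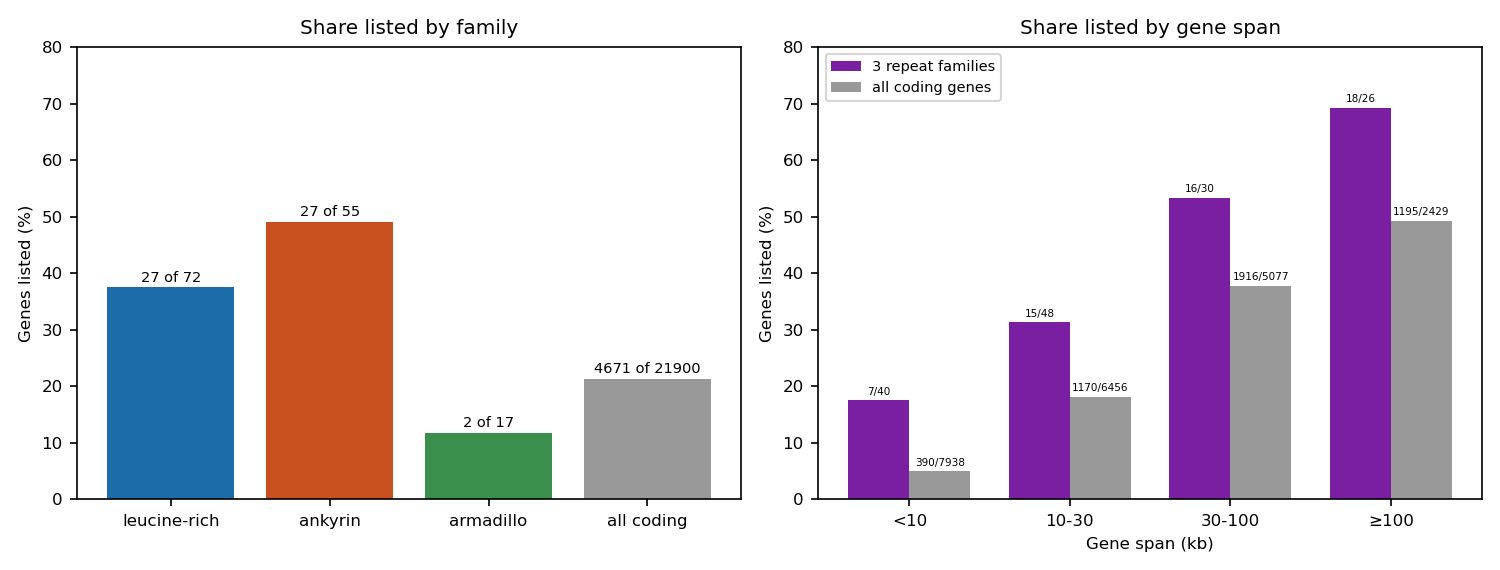
Bars give the percentage of RefSeq protein-coding genes that are in the table of genes called higher in the FMRP RIP, by repeat family (left) and by class of gene span in kb (right), with the counts above each bar. Among the families as chosen by symbol, ankyrin has the highest share (27 of 55) and armadillo the lowest (2 of 17). The share of the repeat families lies above that of all coding genes in every span class.

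Among the 56 listed genes themselves, the log2 ratio varied little with span. Spearman's rho across genes, for the log2 ratio with the pseudocount, was 0.21 for span and 0.15 for the input CPM. It is a description over genes that share the same libraries, and for the input CPM it was not computed without a pseudocount. Over all listed genes the values were 0.16 and 0.25. The 28 genes of longer span (60.2 to 281 kb) had a median log2 ratio of 1.43, and the 28 of shorter span (4.86 to 55.4 kb) 1.22. Short genes were also found among the higher ratios. *Ankrd61*, with a span of 6.95 kb, went from 39.3 CPM (input) to 207 CPM (FMRP RIP), a ratio of 5.28 (interval 4.97 to 5.61), and *Ankrd49*, with 5.24 kb, had a ratio of 3.99 (interval 3.48 to 4.59). Both overlap another listed protein-coding gene, *Eif2ak1* and *Mre11a*, as *Lrrc18* and *Lrrc71* do with *Wdfy4* and *Arhgef11*. The sources used here do not say whether reads were counted by strand.

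With the pseudocount of 1 CPM, the level in the input did not order the repeat genes as it did the table. At 30 CPM or more in the input, the 18 repeat genes had a median log2 ratio of 1.22, beside 1.56 for the 1106 listed genes of that class. From 1 to under 10 CPM, the 11 repeat genes had 1.65, beside 1.29 for 1904 listed genes. The classes between these (19 repeat genes, 1.53 beside 1.52) and under 1 CPM (8 repeat genes, 1.09 beside 1.002) differed less. Without a pseudocount the medians of the repeat genes were 2.02 under 1 CPM and 1.79 from 1 to under 10 CPM. They were 1.60 from 10 to under 30 CPM and 1.23 at 30 CPM or more. The low values under 1 CPM thus come from the pseudocount, and the order of the classes depends on it. Medians without a pseudocount were not computed by class for all listed genes, so the contrast with the table holds for the pseudocount alone.

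The 56 genes together made up 0.198% of reads in the input library and 0.813% in the FMRP RIP library, a fold of 4.11 beside 3.89 for all listed genes. *Lrrc8b* alone made up 4.26% of their summed input CPM and 18.0% of their summed FMRP RIP CPM, and *Lrrc9* 1.41% and 8.42%. Without *Lrrc8b* and *Lrrc9*, chosen after their values were seen, the fold of the other 54 genes was 3.21.

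Genes with the same repeats but other names were also counted, from lists of symbols chosen for their known repeats. Their counts stand beside 21.3% of all protein-coding genes listed and 70.1% of all listed genes with a log2 ratio above 1 (median 1.35). Of 32 other leucine-rich repeat genes, 15 were listed and 10 had a log2 ratio above 1, with a median of 1.34. *Lrrcc1*, a centrosomal protein gene, was the highest of them (15.0 CPM in input, 189.6 CPM after precipitation, ratio 12.7, interval 11.5 to 13.9). Of 58 other ankyrin repeat genes, 27 were listed and 19 were above 1, with a median of 1.35. Of 27 other armadillo repeat genes, 15 were listed and 7 were above 1, with a median of 0.98. The highest of these was *Apc*, a scaffold of the beta-catenin destruction complex that also binds microtubules, which went from 3.24 CPM (input) to 56.8 CPM (FMRP RIP) (ratio 17.5, interval 14.3 to 21.7).

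Of the 56 genes, 16 had fractions of reads in at least 1 library; reads shared with other genes or copies were not tested. Of these, 4 overlap another protein-coding gene of the annotation and 12 do not. A further 10 overlap such a gene and have whole reads. The lower limit of the counting interval was above 1 for all 56 genes, the lowest being 1.40 for *Lrrc20*, but the selection for higher values in the FMRP RIP gives the same direction, and the intervals do not cover differences between precipitations.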

How the data were processed

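RNA immunoprecipitation sequencing (RIP-seq) data came from testes of adult wild-type mice, with 1 input library and 1 FMRP RIP library, grouped by their labels. The submitters' processing notes name STAR and the builds GRCm38 and mm10; the counting tool is not given in the sources used here. The authors deposited CPM values per gene for genes they called higher in the FMRP RIP with edgeR. Their fold changes and p-values were not used. The CPM values are whole multiples of 0.01 read, which gave totals of 30849871 and 36506932 reads. At a tolerance of 0.005 read, 78.4% of the input values above 0 and 78.8% of the FMRP RIP values were whole reads, so no count test was run.

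Enrichment was log2 of the FMRP RIP over the input after a pseudocount of 1 CPM was added to both, without a test. Ratios of CPM carry exact Clopper-Pearson 95% intervals from rounded reads, which cover counting error only. Rows of the same symbol were counted once. Members, lists and the rule for named genes (the 5 highest and 5 lowest per family with at least 100 reads, and groups by role) were chosen with earlier results of these data known. The functions were tested on simulated libraries. Symbols and overlaps came from RefSeq GRCm38.p6. Protein length and repeat motifs were planned and were not used here. Alternatives were other pseudocounts, scaling and limits on low values. Computations used scipy 1.17.1, pandas 2.3.3 and numpy 2.4.6 under Python 3.11.15, and plots matplotlib 3.10.9.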

Additional observations from a re-analysis of the deposited data

How the results depend on the processing

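Every listed gene had been called higher by the authors. Pseudocounts and limits on low values cannot turn a direction, and the alternative scaling raises every FMRP RIP value. No reversal could therefore appear with these settings, and a scaling that lowers those values was not tried. The count of repeat genes with a log2 ratio above 1 was 44. Raising the pseudocount to 5 CPM gave 35, and lowering it to 1/8 CPM or leaving it out gave 49. Scaling by reads on genes that are not listed, which multiplies each FMRP RIP value by 1.92, gave 56. Of the 4745 listed genes, these settings put 2455, 3777, 3855 and 4743 above 1. The median log2 ratio of 1.33 became 1.18 with 5 CPM, 1.55 with 1/8 CPM, 1.59 with none, 2.20 with the other scaling and 1.48 with at least 1 CPM in both libraries. For leucine-rich repeat genes these settings gave 1.19, 1.51, 1.52, 2.16 and 1.48, and whole reads alone 1.48. For ankyrin repeat genes they gave 1.26, 1.84, 2.0, 2.36 and 1.76, and a minimum of 100 reads 1.60. For armadillo repeat genes the other scaling gave 2.01. With whole reads alone, the ankyrin median of 1.33 lay below the leucine-rich one, so the order of these families depends on the genes with part reads; the cause was not tested. Of 224 values of single genes, 89 moved by more than the distance from the centre to the edge of their counting interval. Of these, 52 did so with the other scaling. No paired analysis was possible because input and FMRP RIP are single libraries, and for the same reason no replicate could be left out. Depth limits genes under 1 CPM in the input, 8 of the 56.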
